A study of Mus musculus with 16 samples.

Results

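The genes described here are 40 genes of endothelium, the cell layer that lines blood vessels, and of endocardium, the endothelium of the heart. They were taken by symbol from a fixed list, and all 40 were found among the 48526 genes measured in each of 16 mouse embryos. RNA came from the cardiac region dissected from single embryos at E8.5, the stage at which the heart tube begins to loop. All embryos were on the C57BL/6J strain. In line G3, 4 embryos labelled mutant carried the genotype Greb1lem1Cjean/em1Cjean and were compared with 4 controls labelled as wild-type littermates. In line G17, 4 embryos labelled mutant carried Greb1lex17/ex17 and were likewise set against 4 wild-type littermates. The alleles are not tied to a cell type by the labels, and the labels give neither litter nor sequencing batch, so p-values measure the spread between these embryos.

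Endothelial cells of the early embryo arise from mesoderm under the transcription factor ETV2 and are then held in that state by other ETS factors such as ERG and FLI1. They respond to VEGF through the receptor KDR and are joined by VE-cadherin, the product of Cdh5. Around the time of looping the heart tube is a sleeve of muscle lined by endocardium, which signals to the muscle and later forms the valves.

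Values are normalized reads, that is reads of a gene divided by a size factor of the embryo, and a change was called at an adjusted p under 0.05 in limma across all genes tested. Libraries held 32391421 to 49353025 reads. The limit for a gene without reads, 3 reads, is 2.53 to 3.84 normalized reads, and all but 1 of the 640 values of the genes lay above it, the exception being Lyve1 at 0 in G17 mutant 36. The targeted gene Greb1l was at 42.9% of the control mean in the G17 mutants (4215 ± 961 against 9818 ± 508, SD, n = 4). In G3 it was at 183% in the libraries labelled mutant (20144 ± 3377 against 10984 ± 1319), so its RNA was higher there, not lower. What the RNA level means for the function of the allele was not tested. G3 directions are given for the libraries as labelled. By sex-linked genes, 2 of 4 embryos were female in either G3 group and 8 of 8 in G17.

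The defining endothelial genes Pecam1, Cdh5, Kdr, Tie1 and Esam and the endocardial genes Nfatc1 and Npr3 were present in every embryo. Levels per length were compared as normalized reads per kb of exon in the 8 control embryos. Plvap, whose product forms the diaphragms of endothelial pores, had the highest median, at 1502 reads per kb. It was followed by Aplnr, the apelin receptor, at 1384, by Cdh5 at 1030, and by the receptors Kdr at 591 and Tek at 546. Plvap and Aplnr did not differ beyond their spread (1488 ± 201 and 1414 ± 151, SD, n = 8), nor did Kdr and Tek (591 ± 37.5 and 572 ± 180). The lowest were Clec14a, a surface lectin, at 18.4 and Vwf, the clotting factor stored by mature endothelium, at 15.7. Kdr was also the most even from embryo to embryo, with a median coefficient of variation of 7.31% over the 4 groups, and Lyve1, a hyaluronan receptor of lymphatic and yolk sac endothelium, the least even at 80.4%.

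Embryos that stand apart bear on several of the genes. G3 control 18 had 200 genes at more than 2-fold above every other embryo, and Cdh5, Thbd and Angpt2 were among them. The summed level of 12 trophoblast genes, among them Prl3d1, was 47801 in this embryo and 304 to 3258 in the other 15. In G17 control 29, 133 genes stood above every other embryo by the same measure. The sum of 4 uterine epithelium genes, among them Ltf, was 4482 there against 0 to 208 elsewhere. Emcn, at 91.9 in that embryo, was below the 202 or more of every other embryo. Both lists were chosen after these values were seen. Yolk sac endoderm genes, 12 with Afp among them, also moved with genotype. Their sum was 25660 to 96037 in G3 controls and 7463 to 32107 in G3 libraries labelled mutant, and 36312 to 263323 in G17 controls and 10574 to 54028 in G17 mutants. Of the 12, 7 of 11 tested were called lower in G17, 0 of 11 in G3 and 9 of 12 in both lines together, and all were detected. The part of these tissues in the results was not tested except where a value with such an embryo left out, or with the list's mean log2 level as a term, is given.

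**Figure D1:**
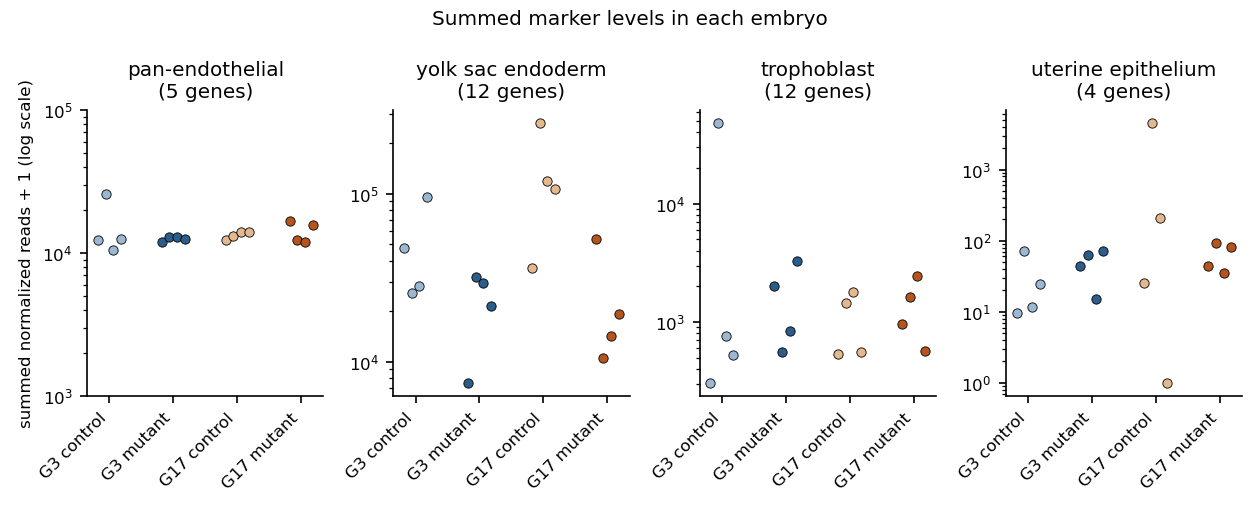
Summed normalized reads plus 1 of 4 marker lists in each of the 16 embryos, on log axes. The 5 pan-endothelial genes summed to between 10553 and 25849, with G3 control 18 at the top. That embryo also led the trophoblast sum at 47801, and G17 control 29 led the yolk sac and uterine sums at 263323 and 4482.

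Most of the genes did not pass the test: 35 of 40 were called in no comparison. In G3, 1 gene was called lower (Plvap) and 0 higher, which is 2.5% of the 40 where 3.98% of 18025 genes tested were called (2.35% higher and 1.63% lower). In G17, 1 was called higher (Thbd) and 1 lower (Aplnr), or 5%, where 3.03% of all genes were called (1.87% higher, 1.16% lower). With both lines in a single fit and line as a term, 1 was called higher (Ramp2) and 3 lower (Plvap, Apln and Aplnr), or 10%, beside 9.4% of all genes (5.01% higher, 4.39% lower). These shares were near those of all genes. The median log2 fold change of the 40 was -0.10 in G3, -0.06 in G17 and -0.09 in both lines together, beside 0.01, -0.01 and 0.00 for all genes tested. Without G3 control 18 the G3 median was 0.06 and that of both lines together 0.02, so both signs rested on that embryo. The G17 median was 0.01 without mutant 36 and 0.03 without mutant 41. Leaving out any other single embryo kept each median below 0. Fitting the mean level of the yolk sac endoderm genes alongside genotype gave 0.19 in G17 and 0.07 in both lines together, while G3 stayed at -0.07. The negative medians are thus not a stable result in any of the 3 fits. The log2 fold change lay within 0.5 of 0 for 38 of the 40 in G3 and for 29 in G17. It was below 0 in both lines for 15 genes, above 0 in both for 9 and of opposite sign for 16. In bulk tissue, fewer cells of a type and less RNA per cell cannot be told apart.

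**Figure D2:**
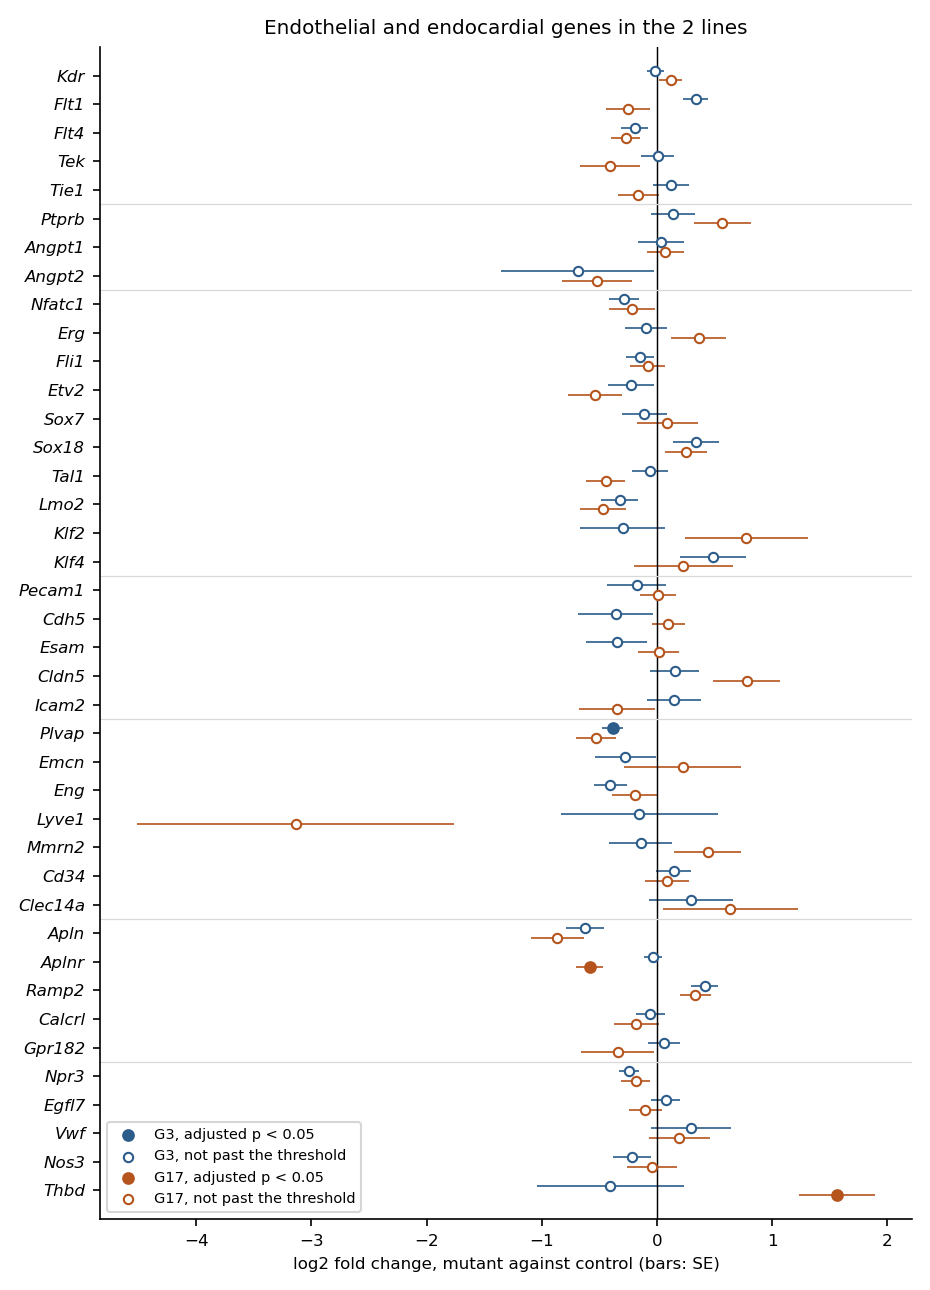
Log2 fold change of mutant against control with its standard error, from log2(normalized reads + 1), for the 40 genes in G3 (blue) and G17 (orange), ordered by role. Filled points passed the adjusted threshold: Plvap in G3 (-0.39), and Aplnr (-0.58) and Thbd (1.56) in G17. The long bar belongs to Lyve1 in G17 (-3.14 ± 1.38).

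The receptors of VEGF and angiopoietins did not pass the test in any comparison, 0 of 5 in each. Kdr, the main signalling receptor of VEGF-A, was at 5366, 5473, 4751 and 5225 normalized reads in G3 controls 16, 18, 20 and 21 and at 4788, 5429.9, 5602 and 4831 in G3 embryos 23, 29, 30 and 31 labelled mutant. In G17 it was at 5327, 5056, 5897 and 5591 in controls 20, 29, 35 and 37 and at 6232, 5629, 5016 and 7007 in mutants 33, 36, 41 and 42. Embryos of a group are listed in this order throughout. The groups overlapped in both lines, with log2 fold changes of -0.01 ± 0.07 (SE) in G3 and 0.12 ± 0.10 in G17. Tie1, a partner receptor of TEK, was at 1258, 1882, 1007 and 1376 in G3 controls and at 1376, 1609, 1375 and 1505 in the embryos labelled mutant. The G17 values of Tie1 were 1579, 1638, 1569.8 and 1352 in controls and 1872, 948, 1244 and 1582 in mutants, again overlapping. Control 18 had the highest G3 value of Tie1, and mutant 36 the lowest of all.

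Flt1 encodes a VEGF receptor that also has a soluble, ligand-trapping form. Its values were 1953 to 2357 in G3 controls and 2269 to 3143 in those labelled mutant (0.34 ± 0.11, adjusted p = 0.119), and in G17 2168 to 4926 and 2276 to 2692 (-0.25 ± 0.19, adjusted p = 0.588). The highest value, 4926, was that of G17 control 29, the embryo with the uterine genes. Tek, the angiopoietin receptor, was at 3119 ± 1017 in G17 controls and 2379.8 ± 898 in mutants, with control 29 again highest at 4427. Flt4, the receptor of VEGF-C, stood at -0.19 ± 0.12 in G3 and -0.27 ± 0.13 in G17, neither past the threshold.

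Of the ligands and the phosphatase that act on TEK, Angpt1, its activating ligand, was at 0.04 ± 0.20 in G3 and 0.07 ± 0.16 in G17. Angpt2, a ligand that can oppose ANGPT1, was at 249, 3258, 174 and 320.1 in G3 controls, where control 18 was at 13.1 times the mean of the other 3. The embryos labelled mutant lay at 280.0 to 292, and without control 18 the log2 fold change turned from -0.69 ± 0.66 to 0.25, neither called. Ptprb, a phosphatase of TEK and VE-cadherin, rested at 489 ± 165 in G17 controls and 692 ± 60.1 in G17 mutants (0.57 ± 0.25, adjusted p = 0.272).

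Of the 5 genes of peptide receptor systems, 0 were called in G3 and 1 in G17, beside 3.98% and 3.03% of all genes. In both lines together 1 was called higher and 2 lower, beside 5.01% and 4.39% of all genes. This grouping was chosen with earlier results of these data known. Apelin, the product of Apln, is a secreted peptide of sprouting endothelium, and Aplnr encodes its receptor, which early cardiac mesoderm makes as well. Apln (ENSMUSG00000037010, chrX:48025146-48034853 on GRCm38, minus strand, protein coding) was at 922, 681, 786 and 734 in G3 controls and at 498, 643, 480.4 and 415 in the embryos labelled mutant. Its G17 values were 624, 1386, 909 and 1087 in controls and 535, 614, 412 and 570.2 in mutants. Every mutant value lay below every control value of its own line (exact two-sided permutation p = 0.0286 in each line, the smallest that 70 arrangements allow). The mutant mean was 65.2% of the control mean in G3 and 53.2% in G17. Apln fell in both lines together (-0.75 ± 0.15, adjusted p = 0.00204), and within a line it did not pass (-0.62 ± 0.16, adjusted p = 0.0512 in G3, and -0.87 ± 0.23, adjusted p = 0.0652 in G17). The authors' deposited table gives Apln an adjusted p of 0.051 in G3 and 0.0203 in G17. Control 29 held its highest value, and without that embryo the G17 log2 fold change was -0.69.

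Aplnr (ENSMUSG00000044338, chr2:85136225-85139923, plus strand, protein coding) gave 4893, 6573, 5193 and 5181 in G17 controls and 4266, 3172, 3913 and 3241 in G17 mutants. The groups did not overlap, and Aplnr fell to 66.8% of the control mean (-0.58 ± 0.12, adjusted p = 0.0181). In G3 the values were 4765, 5258, 4937 and 5062 in controls and 4929, 4873, 4229 and 5547 in those labelled mutant, which overlapped (-0.04 ± 0.08, adjusted p = 0.854). In both lines together it fell (-0.31 ± 0.09, adjusted p = 0.0394). That call ended when G3 mutant 30, any G17 control, or G17 mutant 36, 41 or 42 was left out (adjusted p up to 0.0866) and with edgeR or no filter on low values, and the G17 call ended without mutant 36 or mutant 42 (up to 0.0702). A term for the yolk sac score left the G17 value at -0.28, which was not called (adjusted p = 0.532). The difference between the lines, -0.55 ± 0.15, did not pass the test (adjusted p = 0.616).

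Ramp2 and Calcrl encode the subunits of the adrenomedullin receptor. Ramp2 (ENSMUSG00000001240, chr11:101246028-101259546, plus strand, protein coding) was at 1384, 1396, 1012 and 1371 in G3 controls and at 1687, 1833, 1738 and 1576 in the embryos labelled mutant, with no overlap. The G17 controls gave 1578, 1555, 1549 and 1383 and the G17 mutants 2503, 1787, 1596 and 1851, where the lowest mutant lay just above the highest control. Ramp2 rose in both lines together (0.37 ± 0.09, adjusted p = 0.00923), with 0.41 ± 0.12 (adjusted p = 0.0686) for G3 and 0.33 ± 0.13 (adjusted p = 0.234) for G17. The annotated gene Vps25 overlaps Ramp2 on the same strand, so reads of the shared stretch are uncertain. Calcrl did not pass (-0.06 ± 0.13 and -0.18 ± 0.20), nor did Gpr182, a receptor of endothelial cells (0.06 ± 0.14 and -0.34 ± 0.31). Adm, which encodes adrenomedullin, the ligand of the receptor of RAMP2 and CALCRL, was at 9214 in G3 control 18 and at most 1222 in the other embryos. Adm was not called with all embryos, but without control 18 it was higher in both lines together (1.11, adjusted p = 0.0423).

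With the yolk sac endoderm score as a term in the fit of both lines, Apln (-0.50, adjusted p = 0.162), Aplnr (-0.13, 0.678) and Plvap (-0.27, 0.319) were no longer called, while Ramp2 was (0.54, 0.00555). Yolk sac genes moved with genotype in these embryos.

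**Figure D3:**
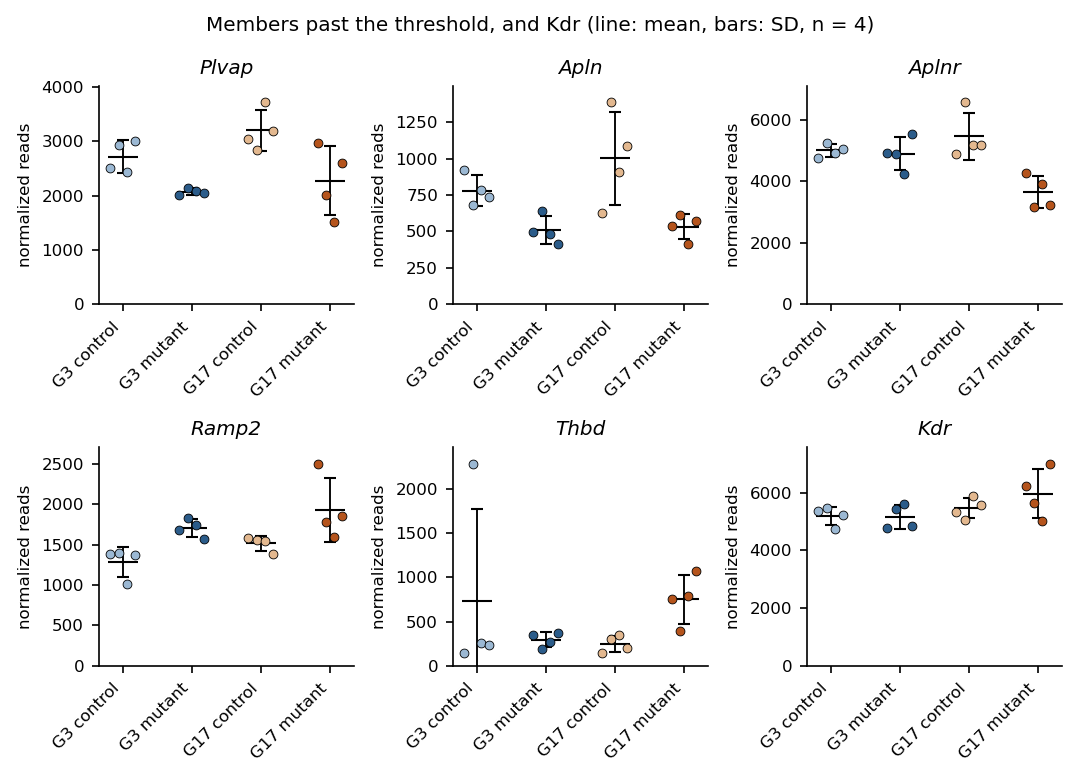
Normalized reads of the 5 called genes and of Kdr in each embryo by group, with the mean as a line and the SD as bars (n = 4). Apln lay lower in both sets of mutants, Aplnr and Thbd set G17 mutants apart, and G3 control 18 stood at 2286 for Thbd; SD bars that would pass below 0 are cut at the axis.

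Promoters of 19 of the 40 genes were in the RefSeq table of GRCm38.p6, each from 250 bases before to 50 after the start of a transcript. They were searched on both strands for GGAAG, which holds the core bound by ETS factors. Of the 19 genes, 15 held it in at least 1 promoter, beside 71.4% of 32851 promoters of the same length. The measures differ, since Egfl7 and Erg had 3 promoters and Tal1 2, and the 71.4% counts single promoters. Those of Apln, the only called gene among the 19, and of Kdr, the most even of the 40, are shown with matches to GGAAG or its reverse complement CTTCC in capitals, 4 in Apln and 1 in Kdr.
Apln (chrX:48034804-48035103, minus strand): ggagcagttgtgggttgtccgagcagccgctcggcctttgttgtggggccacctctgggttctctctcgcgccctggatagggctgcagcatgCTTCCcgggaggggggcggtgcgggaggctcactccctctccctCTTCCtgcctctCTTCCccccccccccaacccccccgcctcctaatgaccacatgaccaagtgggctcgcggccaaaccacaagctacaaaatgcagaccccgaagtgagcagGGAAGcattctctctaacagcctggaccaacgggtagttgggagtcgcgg
Kdr (chr5:75978406-75978705, minus strand): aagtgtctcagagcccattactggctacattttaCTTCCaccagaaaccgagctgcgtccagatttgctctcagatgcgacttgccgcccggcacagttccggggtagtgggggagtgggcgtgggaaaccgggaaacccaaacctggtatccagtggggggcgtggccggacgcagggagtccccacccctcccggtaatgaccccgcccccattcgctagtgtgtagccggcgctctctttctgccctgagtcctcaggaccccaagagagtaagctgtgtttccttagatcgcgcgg

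Genes of junctions and adhesion were not called, 0 of 5 in each comparison, and G3 control 18 set their spread in G3. Cdh5 was at 4115, 14252, 3329 and 4214 in G3 controls and 4114, 4115, 4080.2 and 4425 in the embryos labelled mutant. Its G17 values were 3725, 4746, 4447 and 4887 in controls and 6172, 3921, 3933 and 5327 in mutants. Control 18 stood far above the other 3, and without it the G3 log2 fold change went from -0.36 ± 0.33 to 0.11. Pecam1, an adhesion molecule of endothelial contacts, was at 914, 2609, 939.8 and 1076 in G3 controls and 1017, 1173, 1125 and 1098 in those labelled mutant. In G17 Pecam1 was at 1013, 1046, 1395 and 1379.9 in controls and 1485, 1234, 1172 and 975 in mutants. All groups overlapped, and the log2 fold change was -0.18 ± 0.26 in G3, or 0.18 without control 18, and 0.01 ± 0.16 in G17.

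Esam, another junction molecule, was at 746, 1633, 527 and 717 in G3 controls and 591, 629, 744 and 632 in those labelled mutant. Its G17 values were 635, 669.8, 768 and 768 and 942, 652, 559 and 761 in controls and mutants. Neither line passed (-0.35 ± 0.26, or -0.02 without control 18, and 0.02 ± 0.18). Kdr in control 18 was 5473, within reach of the other controls, while Cdh5, Pecam1 and Esam were 2.46 to 3.67 times the mean of the other G3 controls. Cldn5, the claudin of tight junctions, was at 369 ± 101 in G17 controls and 658 ± 256 in G17 mutants (0.78 ± 0.29, adjusted p = 0.196). Icam2 stood at 0.15 ± 0.23 in G3 and -0.35 ± 0.33 in G17.

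**Figure D4:**
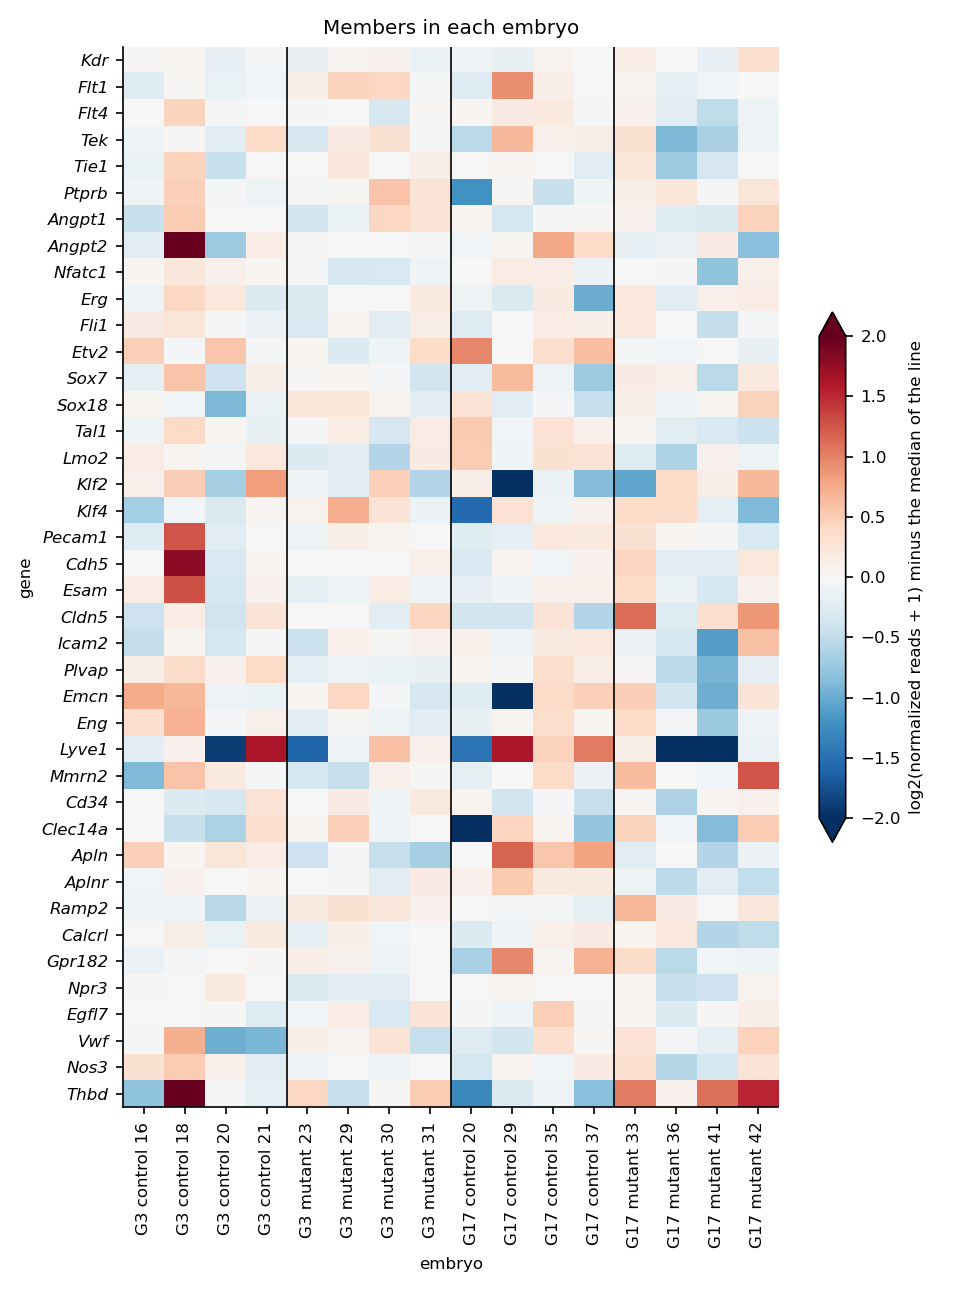
Each of the 40 genes (rows, by role) in each embryo (columns) as log2(normalized reads + 1) minus the median of the 8 embryos of its line, with colour saturating at 2 in either direction. G3 control 18 is dark red for Angpt2, Cdh5 and Thbd, and is the highest of all 16 embryos in 12 of the 40 genes. G17 mutant 41 is the lowest of all 16 in 8.

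Among the surface proteins, 1 of 7 was called. Plvap (ENSMUSG00000034845, chr8:71497765-71511752, minus strand, protein coding) was at 2502, 2936, 2427 and 3011 in G3 controls and 2005, 2147, 2091 and 2049 in the embryos labelled mutant. Those groups did not overlap, and Plvap fell to 76.2% (2073 ± 60.4 against 2719 ± 297, log2 -0.39 ± 0.09, adjusted p = 0.0272). The G17 controls gave 3041, 2844, 3720.1 and 3197 and the G17 mutants 2965, 2021, 1519 and 2602. Mutant 33 lay above control 29, and the G17 difference did not pass (-0.53 ± 0.17, adjusted p = 0.135). Plvap fell in both lines together (-0.46 ± 0.10, adjusted p = 0.00623) and stayed called in each of the 16 fits without an embryo. The G3 call ended without control 21 or without any single embryo labelled mutant (adjusted p up to 0.0813), with 1 fit of all 16 embryos, and with the erythrocyte or the yolk sac score as a term (up to 0.254). Gtpbp3 overlaps Plvap on the opposite strand, and since strand use in counting is not given in the sources used here, shared reads are uncertain.

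Eng, a co-receptor for BMP9 and BMP10, was at 1533 ± 348 in G3 controls and 1139.8 ± 91.5 in those labelled mutant (-0.40 ± 0.14, adjusted p = 0.146), and at -0.19 ± 0.20 in G17. Emcn, a mucin-like protein of venous and capillary endothelium, ranged over 91.9 to 557 in G17 controls, where control 29 was the lowest, and 202 to 567 in mutants. Lyve1 was at 73.3, 644, 284 and 425 in G17 controls and 227, 0, 21.5 and 187 in G17 mutants. The Lyve1 groups overlapped (-3.14 ± 1.38, adjusted p = 0.278), and the fitted value depends on the pseudocount because of the 0. Cd34, Mmrn2 and Clec14a, which are surface and matrix proteins of endothelium, stood between -0.14 and 0.30 in G3 and between 0.09 and 0.64 in G17, none past the threshold.

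Of the 10 transcription factors, 0 were called in any comparison. Nfatc1 (ENSMUSG00000033016, chr18:80606205-80713071, minus strand, protein coding), which marks endocardium and acts in valve formation, was at 729, 830.2, 767 and 727 in G3 controls. In the embryos labelled mutant it was at 695, 566, 578 and 672, all below every G3 control (-0.29 ± 0.13, adjusted p = 0.27). The G17 values overlapped, with 768, 854, 860.4 and 713 in controls and 782, 760.1, 443 and 833 in mutants (-0.22 ± 0.20, adjusted p = 0.659). Mutant 41 was the lowest of the G17 mutants by far. Npr3, the natriuretic peptide clearance receptor of endocardium, was at 2324 ± 157 and 1969.6 ± 176 in G3 (-0.24 ± 0.09, adjusted p = 0.165) and did not pass in both lines together (-0.21 ± 0.08, adjusted p = 0.0943). Across all genes tested, 11.5% in G3 and 9.93% in G17 had mutant and control embryos that did not overlap. Of the 40, these were Ramp2 above and Apln, Nfatc1 and Plvap below in G3, and Ramp2 and Thbd above and Apln and Aplnr below in G17, 4 of 40 in each line.

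The early factors lay lower in G17 mutants without passing. Etv2 was at 321 to 629 in G17 controls and 291 to 322 in mutants, where only the highest mutant overlapped the lowest control, number 29 (-0.53 ± 0.23, adjusted p = 0.275). In G3 Etv2 was at -0.23 ± 0.20, and in both lines together at -0.38 ± 0.16 (adjusted p = 0.14). Its difference between the lines, -0.31 ± 0.31, did not pass (adjusted p = 0.893). Tal1 and Lmo2, which act together in blood and endothelial progenitors, were at -0.44 ± 0.17 and -0.47 ± 0.20 in G17 and at -0.06 ± 0.15 and -0.32 ± 0.16 in G3. In both lines together Lmo2 missed the threshold narrowly (-0.40 ± 0.13, adjusted p = 0.0507). Both are also made by primitive red cells. The 13 red cell genes listed, among them Hba-x, summed to 1823 to 3205 in G3 controls and 2005 to 2792 in those labelled mutant. In G17 the sums were 2210.0 to 4670.4 in controls and 1635 to 6312 in mutants, with 0 called. Tal1 and Lmo2 are themselves among the 13, so the sum is no separate measure of red cells. In G3 control 16, with a sum of 1823, Tal1 was at 815 and Lmo2 at 811. The erythrocyte score used as a term leaves both genes out. Erg and Fli1 were at -0.10 ± 0.18 and -0.15 ± 0.12 in G3 and 0.36 ± 0.24 and -0.08 ± 0.15 in G17. The SOXF factors Sox7 and Sox18, which act in vessel formation, were at -0.11 ± 0.20 and 0.34 ± 0.20 in G3 and 0.09 ± 0.26 and 0.25 ± 0.18 in G17. Klf2 and Klf4, which respond to blood flow, were low and uneven, Klf2 ranging over 37.3 to 181 in G17 controls and 79.5 to 257 in mutants.

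Among the secreted and haemostatic genes, Thbd was called. It encodes thrombomodulin, the anticoagulant receptor of endothelium, which placental trophoblast makes as well. Thbd (ENSMUSG00000074743, chr2:148404466-148408188, minus strand, protein coding) was at 151, 301, 347 and 205 in G17 controls and 753, 393, 795 and 1068 in G17 mutants. The groups did not overlap, and Thbd rose to 300% of the control mean (1.56 ± 0.33, adjusted p = 0.0228). In G3 it was at 149.6, 2286, 258 and 231 in controls, where control 18 stood alone, and 350.2, 190.4, 268 and 372 in those labelled mutant (-0.40 ± 0.64, adjusted p = 0.8). Without control 18 the G3 value was 0.46 (adjusted p = 0.417), and Thbd was then called higher in both lines together (1.06, adjusted p = 0.013). With the trophoblast score as a term the G17 value was 1.47 (adjusted p = 0.0517), and the trophoblast sum lay at 533 to 1797 in G17 controls and 572 to 2434 in G17 mutants. The G17 call also ended with 1 fit of all 16 embryos (adjusted p = 0.126), and without control 37 or without mutant 33, 41 or 42 (up to 0.087).

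Nos3, the endothelial nitric oxide synthase, was at -0.21 ± 0.16 in G3 and -0.04 ± 0.22 in G17. Egfl7, a secreted endothelial protein, was at 0.07 ± 0.12 and -0.10 ± 0.14. Vwf was at 0.30 ± 0.35 and 0.19 ± 0.26. None of the 3 passed.

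Whether the mutant effect differed between the lines was tested as an interaction. By limma 0 of the 40 passed. An unadjusted p under 0.05 was met by 3 of the 40 (Flt1, Aplnr and Thbd), beside 1276 of 20010 genes tested. Of all 20010 genes limma called 0.01% (0.005% higher in G17 and 0.005% lower). DESeq2 also called 0 of the 40, beside 0.075% of all genes. The difference, G17 minus G3, was -0.59 ± 0.24 for Flt1 (adjusted p = 0.745) and 1.97 ± 0.81 for Thbd (adjusted p = 0.741), and G3 control 18 entered the latter. Between the control groups of the lines, on reads scaled jointly, limma called 0 of the 40 and 0% of 17824 genes, and DESeq2 called 0 of the 40 and 0.264% of all genes. An unadjusted p under 0.05 was found for 2 of the 40 (Flt1 and Lyve1), beside 1251 of 17824 genes tested. G17 controls minus G3 controls was 0.45 ± 0.20 for Flt1 and 1.69 ± 0.75 for Lyve1. Line, litter and batch cannot be told apart in that comparison. Sex also differed with line, with 2 female and 2 male G3 controls and 4 female G17 controls. It was not a term in that comparison or in the interaction.

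Other genes of the same pathways were taken from a list of 51 in 6 groups, all of which were tested. In both lines together 10 were called higher and 2 lower, beside 5.01% and 4.39% of all genes, with a median of 0.18. In G3, 4 were called higher and 0 lower (7.84% and 0%, median 0.18), beside 2.35% and 1.63% of all genes. In G17, 5 were called higher and 1 lower (9.8% and 1.96%, median 0.10), beside 1.87% and 1.16% of all genes. The list was chosen with results of these data known. Of the 10 Notch and arteriovenous genes, 4 rose in both lines together, and the list's median was 0.20. Without G3 control 18 and G17 control 29 the counts over the 51 were 16 higher and 2 lower, beside 1115 and 879 of all 19621 genes. Again 4 Notch and arteriovenous genes were called higher. With a term for the yolk sac score the counts were 8 higher and 2 lower in both lines together, beside 530 and 342 of all 20010 genes. With that term 1 was higher in G3 (Ephb4), beside 154 higher and 68 lower of 18025 genes. In G17 2 were higher (Gja4 and Notch1), beside 139 higher and 37 lower of 17706 genes. In the fit of both lines with this term Dach1, Notch4, S1pr1, Plxnd1, Stab1 and Nrp2 were not called (adjusted p from 0.0513 for Dach1 to 0.462 for Stab1). Adgrl4, Apela, Ephb4, Gja4, Notch1 and Robo4 stayed called. Stab1 and Nrp2 were the 2 called lower without the term, so the 2 called lower with it were other genes. Some of the 8 called higher were other genes as well, so similar counts do not mean the same calls.

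Notch1, a receptor that guides arterial fate and endocardial signalling, was at 2727, 3131, 2848 and 2782 in G3 controls and 4033, 3328, 3829 and 4094 in those labelled mutant. Its G17 values were 3033, 2489, 2489 and 2390.3 in controls and 4938, 4036, 3774 and 5339 in mutants. The groups did not overlap in either line, and Notch1 rose in G3 (0.41 ± 0.08, adjusted p = 0.0138) and also in the G17 line (0.79 ± 0.12, adjusted p = 0.00399). Other tissues of the region also make Notch1.

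Notch4, a Notch receptor largely of endothelium, was at 483 ± 122 and 725 ± 33.8 in G3 and at 558 ± 124 and 876 ± 187 in G17. It rose in both lines together (0.64 ± 0.14, adjusted p = 0.00532). Its RefSeq promoter, shown because Notch4 rose where Apln fell, held 4 matches of the same kind, in capitals.
Notch4 (chr17:34564045-34564344, plus strand): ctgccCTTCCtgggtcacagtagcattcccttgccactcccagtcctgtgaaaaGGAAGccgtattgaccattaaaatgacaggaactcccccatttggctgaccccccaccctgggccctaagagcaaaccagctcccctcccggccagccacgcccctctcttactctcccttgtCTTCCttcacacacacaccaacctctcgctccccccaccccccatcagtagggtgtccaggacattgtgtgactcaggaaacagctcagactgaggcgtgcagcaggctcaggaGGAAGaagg

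Gja4, the connexin 37 gene of arterial endothelium, rose in G17 from 322 ± 49.8 to 709.8 ± 99.5, or 220% (1.14 ± 0.19, adjusted p = 0.00768), and was at 0.57 ± 0.25 in G3 (adjusted p = 0.243). Ephb4, the ephrin receptor of veins, rose in both lines together by 0.26 ± 0.05 (adjusted p = 0.00263). The remaining 6 of the group, among them Dll4 (-0.01 ± 0.18), Efnb2 (0.07 ± 0.10), Hey1 (0.20 ± 0.10) and Nr2f2 (0.20 ± 0.08), did not pass in both lines together. Arterial and venous genes were thus both among the 4 called.

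**Figure D5:**
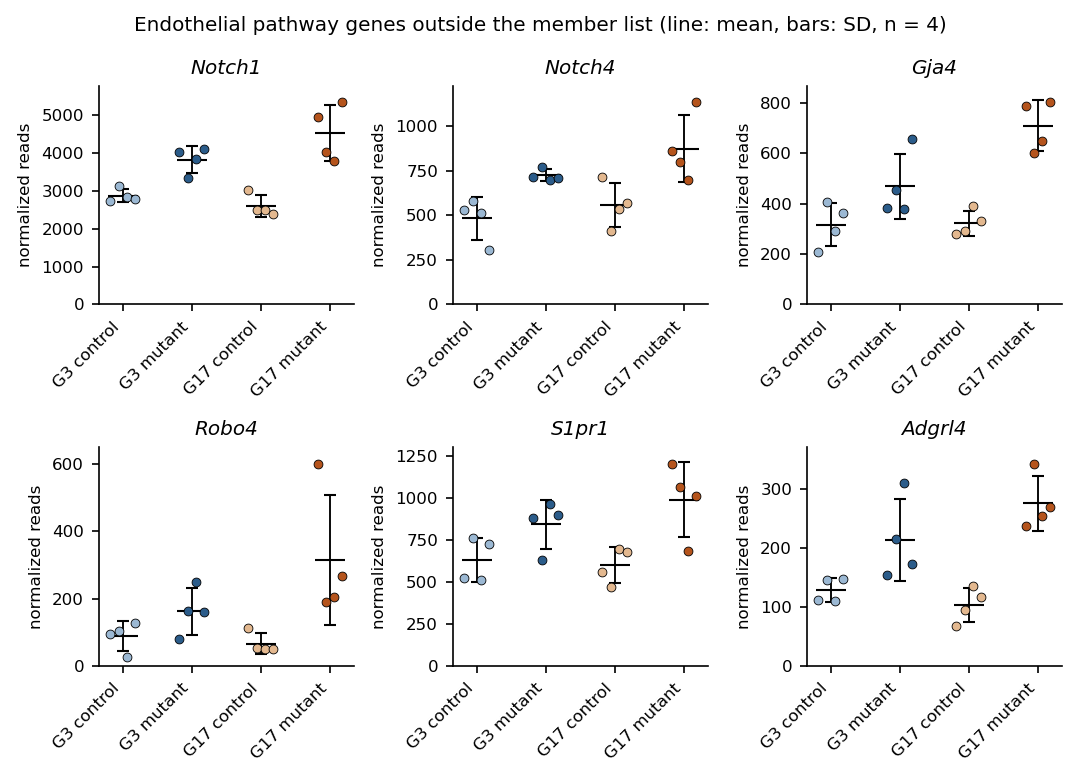
Normalized reads of 6 pathway genes outside the 40, in each embryo by group, with the mean as a line and the SD as bars (n = 4). Notch1 did not overlap between control and mutant in either line, Gja4 and Robo4 were apart in G17, and G17 mutant 33 was highest for Robo4 at 601.

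Robo4, a guidance receptor of endothelium, rose in G17 from 66.1 ± 31 to 315 ± 193 (2.16 ± 0.45, adjusted p = 0.0228), with mutant 33 far above the other 3. Adgrl4, an adhesion receptor of endothelium, rose in G17 (104 ± 28.9 to 276 ± 46.7, 1.44 ± 0.33, adjusted p = 0.0342) and its groups did not overlap in G3 either (0.69 ± 0.30, adjusted p = 0.243). S1pr1, the sphingosine phosphate receptor, rose in both lines together (0.57 ± 0.14, adjusted p = 0.0118), as did Plxnd1, a semaphorin receptor (0.25 ± 0.07, adjusted p = 0.0272). Stab1, a scavenger receptor that macrophages share, fell in G17 (-0.69 ± 0.17, adjusted p = 0.0412), a call that was lost in 7 of 12 other settings. These were edgeR with either scaling, no filter, a pseudocount of 0.1, and the yolk sac, erythrocyte or trophoblast score as a term (adjusted p up to 0.636). The 6 macrophage genes, among them Csf1r, summed to 273 to 582 in G17 controls and 470 to 622 in G17 mutants. Sox17, another SOXF factor, rose in G3 (0.65 ± 0.15, adjusted p = 0.0295) and was at 0.26 ± 0.32 in G17.

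Dach1, a transcription factor, rose in G3 (0.40 ± 0.10, adjusted p = 0.0494) and in the G17 mutants (0.65 ± 0.12, adjusted p = 0.0126), with no overlap in either line. Smad6, an inhibitor of BMP signalling, rose in G3 (0.50 ± 0.12, adjusted p = 0.0411) and stood at -0.05 ± 0.14 in G17. Apela, the second ligand of the apelin receptor, rose in both lines together (0.54 ± 0.11, adjusted p = 0.00299). Apln and Aplnr were called lower in the same fit. Nrp2, a VEGF co-receptor, fell in both lines together (-0.27 ± 0.08, adjusted p = 0.0261), while Vegfa was not called (0.25 ± 0.09, adjusted p = 0.116). Single embryos decide some of these calls. Left-out fits ended that of Dach1 in G3 without any embryo other than control 18 (adjusted p up to 0.125) and in G17 without mutant 42 (0.0547). Those of Smad6 and Sox17 in G3 ended without 6 of 8 embryos (up to 0.123 and 0.0849), the exceptions being control 18 and mutant 23 for Smad6 and controls 18 and 21 for Sox17. In G17 the call of Adgrl4 ended without any embryo other than control 29 (up to 0.109), that of Robo4 without control 35, control 37, mutant 33 or mutant 42 (up to 0.065), and that of Stab1 without control 35, control 37, mutant 36, mutant 41 or mutant 42 (up to 0.128). Nrp2 and Plxnd1 in both lines lost their calls in 6 of 16 fits each (up to 0.0558 and 0.0605), Nrp2 without G3 mutant 23 or 30, G17 control 20, or G17 mutant 36, 41 or 42, and Plxnd1 without G3 control 20 or 21, G3 mutant 23, G17 control 37, or G17 mutant 33 or 42. The calls of Notch1 and Gja4 ended in none of these fits.

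The processing also decided some of these calls. That of Dach1 in G3 was lost in 8 of 13 other settings (adjusted p up to 0.36), which were edgeR with either scaling, no filter, a pseudocount of 0.1, 1 fit of all 16 embryos, and sex, the erythrocyte or the yolk sac score as a term. Smad6 in G3 was lost in 7 of 13 (up to 0.278), the same settings apart from edgeR with TMM factors. Sox17 in G3 was lost in 4 of 13 (up to 0.233), with edgeR and RLE factors, 1 fit of all 16, and the erythrocyte or the yolk sac score, and Notch1 in G3 with either of these scores (up to 0.216). In G17 the call of Adgrl4 was lost with no filter and with the yolk sac or the trophoblast score (up to 0.288), and those of Dach1 and Robo4 with the yolk sac score (0.257 and 0.17). In both lines together Nrp2 was also lost with edgeR and TMM factors and without G3 control 18 and G17 control 29 together, and Plxnd1 with the erythrocyte score.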

How the data were processed

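The authors aligned reads with HISAT2, counted them with featureCounts of Subread on GRCm38 and used DESeq2, per the submitters' processing notes, with versions not given in the sources used here. Per the file headers and values, the deposited columns hold a normalized signal, which is reads divided by a size factor within a line. Whole reads were recovered for 100% of values (tolerance 0.1). The authors' deposited tables also hold p-values and adjusted p-values from their own DESeq2 comparison. Every embryo column was used. Since the files hold no raw counts, limma 3.58.1 with a mean-variance trend in R 4.3.3 was the test, on log2(value + 1) for genes at 10 or more in at least 4 embryos, adjusted by Benjamini-Hochberg over all genes tested. Fold changes are on that scale, where the added 1 shrinks those of low genes. A mean of logs that takes in a value of 0 can still go beyond the ratio of means. Lyve1 in G17 was at -3.14, with a mutant mean at 30.6% of the control mean. Each line was fitted on its own 8 embryos, both lines together with line as a term, and the controls on reads scaled jointly. Alternatives were edgeR 4.0.16 and DESeq2 1.42.0 on recovered reads, other filters and pseudocounts, sex or marker scores as terms, and left-out embryos. The genes given in every embryo are those called in any comparison, the pan-endothelial markers Pecam1, Cdh5, Kdr, Tie1 and Esam, and Nfatc1. Pathway genes named are those called, and Adm, Vegfa, Dll4, Efnb2, Hey1 and Nr2f2 were added after their values were seen. Gene models are GENCODE M21. A separate limma fit on log2(value + 1), scaled by total reads, was tried on simulated counts with known changes. The steps behind the results given here were not themselves run on those counts. The genes and lists were chosen with earlier results of these data known. Intervals of 3 reads cover counting error only.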

Additional observations from a re-analysis of the deposited data

Results flagged for a closer look

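For each of the 40 genes, each group of 4 embryos was searched for an embryo whose gap to the nearest other was unusually large against the group's range (Dixon's test). Of 160 such groups 14 met this, and chance gives about 1 in 20. In normalized reads, G3 control 18 stood above the other 3 G3 controls in 6 genes. They were Cdh5 at 14252 (others 3329 to 4214), Pecam1 at 2609 (others 914 to 1076), Flt4 at 2739.8 (others 1991 to 2038), Thbd at 2286 (others 149.6 to 258), Ptprb at 619 (others 413 to 436) and Angpt2 at 3258 (others 174 to 320.1).

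In G3 the others were Npr3 in control 20 at 2559 (others 2224 to 2269), Egfl7 in control 21 at 1283 (others 1520.2 to 1549.8), Ramp2 in control 20 at 1012 (others 1371 to 1396) and Cdh5 in mutant 31 at 4425 (others 4080.2 to 4115). In G17 they were Sox7 in mutant 41 at 470.2 (others 734 to 781), Cd34 in mutant 36 at 634 (others 994 to 1030.1), Egfl7 in control 35 at 2313 (others 1572 to 1643) and Ramp2 in control 37 at 1383 (others 1549 to 1578). The Ramp2 embryos were the lowest controls of their lines.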

How the results depend on the processing

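Of the 40 genes, 1 was called in G3, 2 in G17 and 4 in both lines together. In G3 the count was 0 with all 16 embryos in 1 fit, or with a term for the erythrocyte or the yolk sac score, 2 with a pseudocount of 5 or the trophoblast score, 3 with a filter of 100 normalized reads and 4 with DESeq2. In G17 it was 1 with the trophoblast or the yolk sac score, and 3 with DESeq2, a filter of 100 or 1 fit of all 16. In both lines together it was 7 with the erythrocyte score, beside 865 higher and 864 lower of 20010 genes. It was 2 with the yolk sac score, where Tek turned from -0.20 to 0.46 and was called. Leaving out 1 embryo gave 0 to 3 in G3, 0 to 3 in G17 and 3 to 5 in both lines together. G3 had 3 without control 18 and 0 without control 21 or mutant 23, 30 or 31, and G17 had 3 without control 20 and 0 without mutant 42. In these fits, calls over all genes were 213 to 556 higher and 126 to 329 lower in G3. They were 169 to 378 higher and 50 to 296 lower in G17. In both lines together they were 845 to 1075 higher and 708 to 913 lower. Over all 18025 genes tested in G3, calls higher and lower were 424 and 293, against 688 and 593 with DESeq2. They were 146 and 67 with the erythrocyte score and 154 and 68 with the yolk sac score. With 1 fit of all 16 they were 338 and 233, with a pseudocount of 5 455 and 317, and with the trophoblast score 568 and 405. The filter of 100 gave 494 and 384 of 12713 genes in G3, and 367 and 249 of 12807 in G17. Over all 17706 genes tested in G17 they were 331 and 206, against 565 and 507 with DESeq2 and 546 and 498 with 1 fit of all 16. There they were 253 and 93 with the trophoblast score and 139 and 37 with the yolk sac score. In both lines together, over 20010 genes, they were 1002 and 878 against 530 and 342 with the yolk sac score. The cause was not tested. The trophoblast score, and leaving out G3 control 18 and G17 control 29 together, were chosen after seeing the data. The latter gave 6 called in both lines together, beside 1115 higher and 879 lower of 19621 genes. Of the values of single genes under alternatives, 3141 stayed on their side of the threshold, 122 lost the call, 31 gained it, and Tek above changed sign and was called. Of the 3141, 116 changed sign with no call in either fit, 25 of them with the yolk sac score, among them Lyve1 in G17 (-3.14 to 1.07). No paired analysis was possible because the labels give no litter or other pairing of embryos. Depth bears on Lyve1, Klf2 and Clec14a, the genes with the lowest values.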
